A study of Homo sapiens and Mus musculus with 24 samples.

Results

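The levels of the RNA of osteopontin and of its receptor subunits were followed in cultured mouse cancer-associated fibroblasts (CAFs) from prostate tumours. The genes are Spp1, which encodes osteopontin, Cd44, which encodes the hyaluronan receptor CD44, and 6 integrin subunit genes, Itgav, Itga5, Itga9, Itgb1, Itgb3 and Itgb5. They were taken by symbol from the fibroblast table, which lists 39089 gene names, and each symbol was found, so 8 of 8 are described. All 8 were among the 14828 genes that reached 1 TPM in at least 2 libraries and were tested. TPM, the unit of the values, is a read number per transcript length, expressed relative to the library's total.

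Osteopontin is a secreted, heavily phosphorylated glycoprotein that sits in the extracellular matrix and also acts as a soluble cytokine. Its arginine-glycine-aspartate motif is bound by integrins that pair the αv chain with β1, β3 or β5 and by the pair of α5 and β1. Cleavage by thrombin or matrix metalloproteinases exposes a site bound by α9β1, and CD44 is a further receptor. An integrin is a pair of 1 α and 1 β chain, so the RNA of a chain does not give the amount of any pair. In tumours macrophages, cancer cells and fibroblasts make osteopontin, and it is known for roles in adhesion, migration and the recruitment of myeloid cells.

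The source mice of the fibroblasts carry a genotype of which the labels' text names Trp53PC-/-, while the genotype field of the cells themselves reads WT. The labels give no promoter for the deletion, no age and no number of mice. Every group compared here has 2 libraries, which the protocol calls biological replicates, and nothing says whether they came from separate mice, so p-values measure the spread between these libraries. 4 groups were grown to day 7 with the vehicle DMSO, with 1 µM enzalutamide, an antiandrogen that blocks the androgen receptor, with 5 ng/ml TGF-beta1, a cytokine that activates fibroblasts, or with both agents. The remaining group is labelled as taken from ADT mice, an abbreviation the labels do not spell out, and was collected at day 0 with no treatment. Differences between the ADT group and DMSO therefore hold ADT, the source mice, culture time and vehicle, which cannot be told apart. Differences between the ADT group and the treated groups also hold the agents, which cannot be told apart from these either. 2 further columns, labelled as Sox4-overexpressing, were not used, because only 10.4% and 11.96% of their values correspond to whole reads.

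The deposited values step by the worth of 1 read, which gave 17191705 to 21040105 reads per library. The libraries labelled with both agents stood close to those of the ADT mice. The chi-square per degree of freedom of their counts was 1.85 to 2.63 for the 4 pairs across these groups, 1.40 to 1.69 for the 5 pairs within a group and 19.5 to 261 for the other 36 pairs. The label of the former is therefore used with care, and each statement on both agents below is about the libraries so labelled. In the DMSO columns at least 50 genes lay on steps of 0.3 read. None of the 8 genes is among them, and their DMSO values are whole reads. The cell type was checked with 11 fibroblast markers: each group had 10 or 11 of them at 1 TPM or more, and their sum, most of it from Col1a1, Col1a2 and Vim, was 15807 to 18476 TPM. Within the list S100a4 was at 1705.5 to 2329 TPM in the DMSO and single-agent libraries and at 147 to 169 TPM with both labels and in the ADT group, and Thy1 was at 468 and 481 TPM in DMSO and 274 to 289 TPM in those 4 libraries.

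Spp1 was already an abundant RNA in DMSO, fell with each agent alone, and was several times higher in the libraries labelled with both agents and in the ADT group. The level was 962 and 956 TPM in the DMSO libraries. It was 577 and 563 TPM with enzalutamide and 502 and 509 TPM with TGF-beta1. The 4 libraries with a single agent thus lay below both DMSO libraries, and those with TGF-beta1 below those with enzalutamide. In the libraries labelled with both agents Spp1 reached 3588.5 and 3650.4 TPM, and in the ADT group 3421 and 3442 TPM. These 4 libraries lay above all others, with 38675 to 45823 reads of Spp1 each against 4963 to 10426 in the rest. By mean rank among all genes of a library, Spp1 stood at 143 in DMSO, 246 with enzalutamide, 292 with TGF-beta1, 18 with both labels and 23 in the ADT group.

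**Figure D1:**
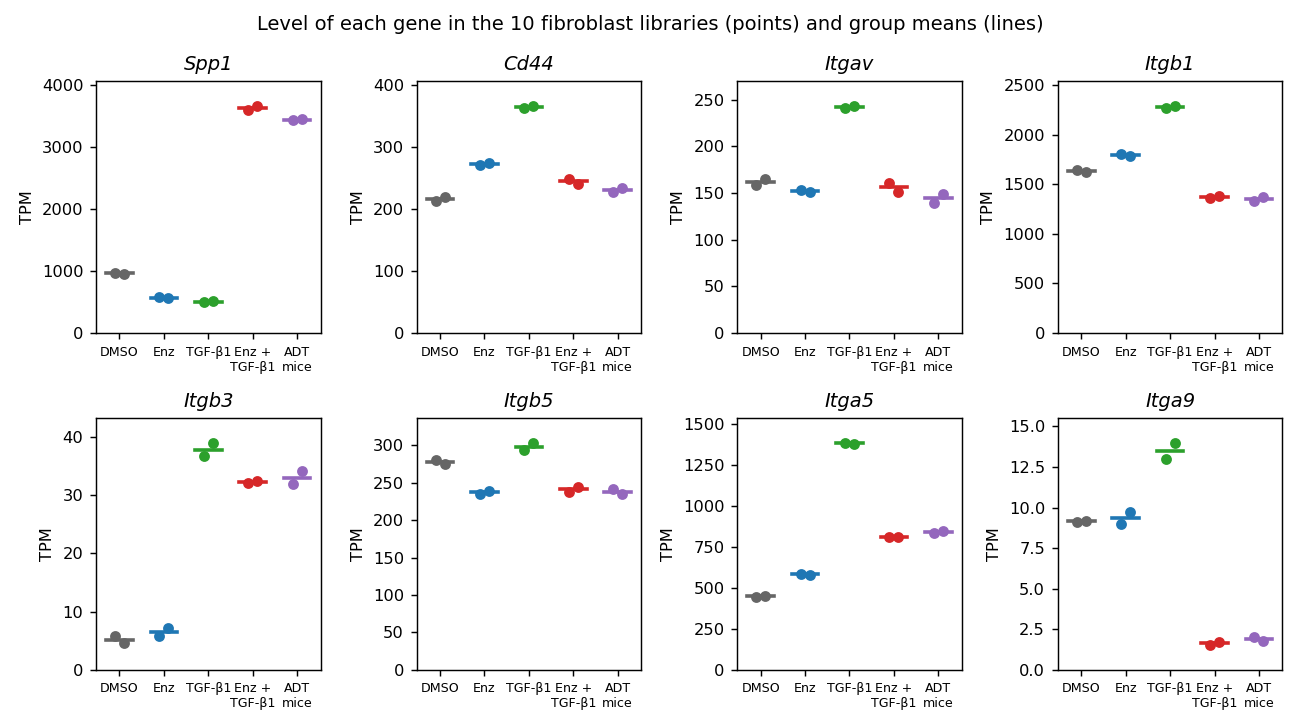
TPM of the 8 genes (vertical axes, each starting at 0) in the 10 libraries by group (horizontal axes); points are libraries and lines the means of 2. Spp1 lies between 3421 and 3650.4 TPM in the 4 libraries labelled with both agents or ADT mice and at 962 TPM or less in the other 6, while Itga9 is at about 2 TPM or less in those 4 and at 9.01 TPM or more in the rest.

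Enzalutamide alone lowered Spp1 1.68-fold, from a mean of 959 ± 4.8 TPM to 570 ± 9.6 TPM (SD, n = 2 each). On the log2(TPM + 1) scale the difference was -0.75, with a standard error of 0.016 and an adjusted p of 4.8e-08 in limma. TGF-beta1 alone lowered it 1.90-fold, to 505 ± 4.8 TPM (log2 difference -0.92, limma adjusted p = 4.2e-09). The level with TGF-beta1 was below that with enzalutamide (log2 difference -0.17, limma adjusted p = 6.6e-05), a gap that shrank to -0.077 under median-of-ratios scaling. With both labels Spp1 was 3.77-fold above DMSO, at 3619 ± 43.8 TPM (log2 difference 1.91, limma adjusted p = 3.1e-11). This was 6.35-fold above enzalutamide alone and 7.16-fold above TGF-beta1 alone. In the ADT group it was 3.58-fold above DMSO, at 3431 ± 14.8 TPM (log2 difference 1.84, limma adjusted p = 4e-11). It was also 6.02-fold above enzalutamide and 6.79-fold above TGF-beta1. ADT and both agents did not differ past the threshold: the log2 difference was -0.077, with a 95% interval of -0.11 to -0.039 before adjustment and an adjusted p of 0.37, although their libraries did not overlap. The comparisons with DMSO share the same 2 control libraries. In bulk RNA, fewer cells of a type and less RNA per cell cannot be told apart.

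Marker sums of other cell types differed in the 4 libraries with high Spp1. Those of leukocytes, of pericytes and muscle, and of endothelium were lower than in the rest, and that of epithelium was higher. Of 15 macrophage and leukocyte markers, 5 were at 1 TPM or more in the libraries with both labels and in the ADT group, against 8 or 9 in the other groups. Their sum was 29.7 to 30.1 TPM with both labels and 34.6 to 35.0 TPM in the ADT group, below the 92.6 to 116 TPM of the other 6 libraries, and Cd3e was at 0 in every library. Lyz2, a lysozyme of macrophages and neutrophils, made up most of that sum in DMSO, at 82.0 and 78.3 TPM, and was at 1.60 to 4.72 TPM in the 4 libraries with high Spp1. Cd14 and Fcer1g of the same list went the other way. Cd14 was at 17.5 to 20.5 TPM in these 4 libraries and 9.39 to 14.3 TPM in the rest, and Fcer1g at 3.34 to 4.90 TPM and 0.988 to 3.30 TPM. The sum of 5 pericyte and muscle markers was 54.5 to 59.5 TPM in these 4 libraries and 193 to 381 TPM in the rest. Most of the former was Cspg4, at 35.8 to 41.2 TPM against 18.6 and 19.8 TPM in DMSO and 237 and 239 TPM with TGF-beta1, while Myh11 and Des were at 0.813 to 1.91 TPM in the 4 libraries and 29.5 TPM or more in the rest. The sum of 6 endothelial markers was 1.32 to 1.80 TPM against 10.5 to 16.7 TPM, and Emcn was at 0 in the 4. The sum of 10 epithelial markers, which was almost wholly Krt19, was 24.7 to 29.5 TPM in these 4 libraries and 8.88 to 20.0 TPM in the rest, and Pbsn was at 0 in all. The 5 osteoblast markers, from a cell type known for osteopontin, summed to 1.92 to 5.51 TPM. The part of other cells in the Spp1 levels was not tested.

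Cd44 was higher with each agent alone than in DMSO and highest with TGF-beta1. It was at 212 and 220 TPM in DMSO, 271 and 275 TPM with enzalutamide, and 362 and 365 TPM with TGF-beta1. The libraries of these 3 groups did not overlap. The rise was 1.26-fold with enzalutamide (log2 difference 0.34, limma adjusted p = 6.8e-05) and 1.68-fold with TGF-beta1 (log2 difference 0.75, limma adjusted p = 1.8e-07). With both labels Cd44 was at 249 and 240 TPM, 1.13-fold above DMSO (limma adjusted p = 0.00035) and 1.49-fold below TGF-beta1 alone (limma adjusted p = 2.8e-07). It was also below enzalutamide alone, by -0.16 on the log2 scale (limma adjusted p = 0.0008), a call that was lost under median-of-ratios scaling, at -0.0099 with an adjusted p of 0.73. In the ADT group it was at 228 and 234 TPM, 1.07-fold above DMSO (limma adjusted p = 0.011). That small difference missed the threshold without DMSO replicate 1 (adjusted p = 0.075), without ADT replicate 2 (adjusted p = 0.07) and without limma's mean-variance trend (adjusted p = 0.053). Median-of-ratios scaling raised it from 0.096 to 0.26 on the log2 scale (adjusted p = 1.8e-05), and the difference of both labels from DMSO from 0.18 to 0.34 (adjusted p = 3.7e-06). Cd44 therefore spanned a far smaller range over the groups than Spp1, and its order, from DMSO through ADT, both labels and enzalutamide to TGF-beta1, was a different one.

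Among the α chains, Itga5, which pairs with β1 in the classical fibronectin receptor, was the most abundant and was above DMSO in all 4 other groups. It was at 443 and 451 TPM in DMSO, 584 and 579 TPM with enzalutamide, and 1384 and 1380.0 TPM with TGF-beta1. With both labels it was at 808 and 810.5 TPM, and in the ADT group at 836 and 845 TPM. No 2 groups overlapped. The rise over DMSO was 1.30-fold with enzalutamide (limma adjusted p = 1.3e-06) and 3.09-fold with TGF-beta1 (limma adjusted p = 1.1e-10). It was 1.81-fold with both labels (limma adjusted p = 1.1e-09) and 1.88-fold in the ADT group (limma adjusted p = 8.2e-10). Itga5 was thus 1.71-fold lower with both labels than with TGF-beta1 alone (limma adjusted p = 2.1e-09) and 1.39-fold higher than with enzalutamide alone (limma adjusted p = 2.5e-08). In order of level, the neighbours both labels and ADT did not differ past the threshold (limma adjusted p = 0.43), and every other neighbouring pair did.

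Itgav, the α chain shared by the osteopontin-binding β1, β3 and β5 pairs, was higher with TGF-beta1 and close to DMSO elsewhere. It was at 159 and 165 TPM in DMSO and 241 and 243 TPM with TGF-beta1, a 1.49-fold rise (log2 difference 0.58, limma adjusted p = 8.5e-06). The other groups lay lower, at 153 and 151 TPM with enzalutamide, 161 and 151 TPM with both labels, and 139.7 and 149 TPM in the ADT group. Neither enzalutamide (log2 difference -0.090, 95% interval -0.18 to 0.0044, limma adjusted p = 0.15) nor both labels (log2 difference -0.055, 95% interval -0.15 to 0.039, limma adjusted p = 0.25) differed from DMSO past the threshold. Under median-of-ratios scaling the value for both labels turned to 0.10 with an adjusted p of 0.038. The ADT group was 1.12-fold below DMSO as deposited (log2 difference -0.16, limma adjusted p = 0.0062) and level with it under that scaling, at 0.0018 with an adjusted p of 0.98. The TGF-beta1 libraries stood far above the rest and the ADT libraries slightly below all others. Of the lower 4 groups no neighbours in order of level differed past the threshold.

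Itga9, the α chain of the receptor for cleaved osteopontin, ran opposite to Spp1, at far lower levels. It was at 9.14 and 9.18 TPM in DMSO, 9.01 and 9.71 TPM with enzalutamide, and 13.0 and 14.0 TPM with TGF-beta1. In the libraries with both labels it was at 1.55 and 1.70 TPM, from 87 and 85 reads, and in the ADT group at 2.01 and 1.79 TPM, from 100 and 92 reads. The 4 libraries with the highest Spp1 were thus the 4 with the lowest Itga9. TGF-beta1 raised Itga9 1.47-fold over DMSO (log2 difference 0.51, standard error 0.081, limma adjusted p = 0.00098). Both labels were 5.64-fold lower than DMSO (log2 difference -1.95, limma adjusted p = 1.2e-07) and the ADT group 4.83-fold lower (log2 difference -1.81, limma adjusted p = 1.9e-07). Enzalutamide did not differ from DMSO past the threshold (log2 difference 0.027, 95% interval -0.16 to 0.22, limma adjusted p = 0.85), with overlapping libraries.

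Among the β chains, Itgb1, the partner of α5, α9 and αv, was the most abundant member after Spp1 in the libraries with high Spp1 and the most abundant of all in the others. It was at 1644 and 1627 TPM in DMSO, 1802 and 1786 TPM with enzalutamide, and 2266 and 2285 TPM with TGF-beta1. It was at 1356 and 1376 TPM with both labels and at 1334 and 1367 TPM in the ADT group, which overlap each other and lie below all others. Relative to DMSO it was 1.10-fold higher with enzalutamide (limma adjusted p = 0.00059), 1.39-fold higher with TGF-beta1 (limma adjusted p = 1.2e-07), 1.20-fold lower with both labels (limma adjusted p = 1.2e-06) and 1.21-fold lower in the ADT group (limma adjusted p = 8.3e-07). Median-of-ratios scaling kept these falls past the threshold but reduced them, from -0.26 to -0.10 for both labels and from -0.28 to -0.11 for the ADT group on the log2 scale.

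Itgb3, the β chain of the vitronectin receptor αvβ3, was a low RNA that was several times higher wherever TGF-beta1 was named in the label, and as high in the ADT group. It was at 5.72 and 4.61 TPM in DMSO and 5.78 and 7.18 TPM with enzalutamide. It was at 36.7 and 39.0 TPM with TGF-beta1, 32.1 and 32.4 TPM with both labels, and 31.9 and 34.2 TPM in the ADT group. The first 4 libraries held 160 to 252 reads of Itgb3 and the other 6 held 1298 to 1475. Over DMSO the rise was 7.33-fold with TGF-beta1 (log2 difference 2.66, standard error 0.11, limma adjusted p = 3.8e-07), 6.24-fold with both labels (limma adjusted p = 1.8e-07) and 6.39-fold in the ADT group (limma adjusted p = 1.7e-07). These 3 groups did not differ from each other past the threshold, and for both labels against TGF-beta1 alone the log2 difference was -0.22, with a 95% interval of -0.47 to 0.026 and an adjusted p of 0.095. Enzalutamide against DMSO gave 0.28 on the log2 scale and missed the threshold (limma adjusted p = 0.1). It passed without DMSO replicate 1 (0.41, adjusted p = 0.049) or without enzalutamide replicate 1 (0.41, adjusted p = 0.042), and fell to 0.15 and 0.14 without the replicates 2 of these groups. Itgb3 was thus high in the TGF-beta1 libraries, where Spp1 was lowest, and in the 4 libraries where Spp1 was highest.

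Itgb5, the β chain of αvβ5, varied least of the 8 genes. It was at 281 and 276 TPM in DMSO, 235 and 239.5 TPM with enzalutamide, 293 and 303 TPM with TGF-beta1, 238 and 245 TPM with both labels, and 241 and 235 TPM in the ADT group. Enzalutamide lowered it 1.17-fold (limma adjusted p = 0.00054). TGF-beta1 raised it 1.07-fold (limma adjusted p = 0.013), a call lost without DMSO replicate 2 (adjusted p = 0.074), without TGF-beta1 replicate 2 (adjusted p = 0.087) and without the mean-variance trend (adjusted p = 0.061). Under median-of-ratios scaling that rise was 0.21 in place of 0.10 on the log2 scale. Both labels and the ADT group were 1.15-fold (limma adjusted p = 0.00015) and 1.17-fold (limma adjusted p = 8.7e-05) below DMSO, calls that were lost under that scaling, at -0.046 (adjusted p = 0.17) and -0.057 (adjusted p = 0.1).

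**Figure D2:**
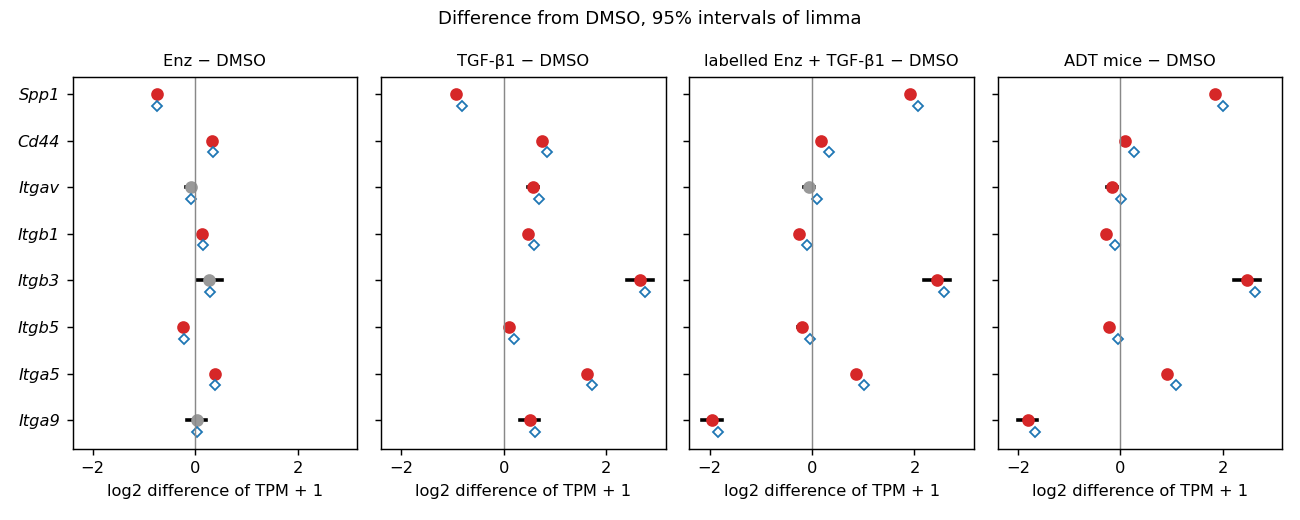
Log2 difference of TPM + 1 from DMSO (horizontal axis) for the 8 genes (rows) in 4 comparisons (panels) that share the DMSO libraries; circles are limma estimates from the deposited values, red where the adjusted p was under 0.05 and grey where it was not, lines 95% intervals, and blue open diamonds the estimates under median-of-ratios scaling. Spp1 is the only gene below 0 with TGF-beta1 (-0.92) and lies at 1.91 and 1.84 in the panels for both labels and ADT mice, where Itga9 lies at -1.95 and -1.81.

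Counted by comparison, enzalutamide against DMSO gave 3 of the 8 genes higher (Cd44, Itga5, Itgb1), 2 lower (Spp1, Itgb5) and 3 that did not pass. Of all genes tested, 9.83% were called higher and 15.2% lower. These 1457 and 2251 genes became 934 and 1602 without enzalutamide replicate 2, 957 and 1577 without enzalutamide replicate 1, and 1004 and 1497 without DMSO replicate 2. TGF-beta1 against DMSO gave 7 higher and 1, Spp1, lower, where 19.0% of all genes were higher and 34.6% lower. The median log2 difference of the 8 genes was 0.54, beside -0.099 over all genes. With TGF-beta1 all 7 receptor genes therefore lay above DMSO while most called genes lay below it. Median-of-ratios scaling moved the split of these calls over all genes from 2816 higher and 5137 lower to 3944 higher and 3828 lower, and left the 8 genes at 7 higher and 1 lower. TGF-beta1 against enzalutamide gave the same count of 7 higher and 1 lower, beside 17.7% and 31.9% of all genes, a split of 2618 and 4723 that became 3584 and 3376 under that scaling.

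Both labels against DMSO gave 4 higher (Spp1, Cd44, Itgb3, Itga5), 3 lower (Itgb1, Itgb5, Itga9) and 1 that did not pass, Itgav, beside 31.5% of all genes higher and 42.7% lower. The ADT group against DMSO gave 4 higher and 4 lower, beside 31.5% and 43.3%. At these backgrounds about 3 in 4 genes were called, so a call says little of the 8 genes, and their sizes were read instead. The medians over the 8 genes were 0.062 and -0.034, beside -0.13 over all genes in each comparison. The factors of the median-of-ratios scaling differed from DMSO by 0.16 on the log2 scale for both labels, 0.17 for the ADT group and 0.11 for TGF-beta1, and genes of low TPM move by less than that after 1 is added. Relative to that shift 5 were higher and 2 lower with both labels, and 4 higher and 2 lower in the ADT group. The changes of Spp1, Itgb3, Itga5 and Itga9 exceeded the shift several times over.

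Against the single agents, both labels gave 3 higher (Spp1, Itgb3, Itga5), 3 lower (Cd44, Itgb1, Itga9) and 2 that did not pass relative to enzalutamide, beside 31.4% and 42.8% of all genes. The shift of the scaling was 0.15 here, under which Itgav (0.18, limma adjusted p = 0.0028) and Itgb5 (0.17, limma adjusted p = 0.00069) passed as higher, and Itgb1 stood at -0.25 in place of -0.39. Relative to TGF-beta1, Spp1 alone was higher, 6 were lower and Itgb3 did not pass, beside 33.4% and 38.2%. The falls there ran from 1.24-fold for Itgb5 to 8.30-fold for Itga9. The ADT group gave 3 higher and 3 lower against enzalutamide, beside 31.4% and 43.1%, and 1 higher and 6 lower against TGF-beta1, beside 33.3% and 38.6%. Against enzalutamide Itgav missed the threshold (-0.075, limma adjusted p = 0.13) and passed without ADT replicate 2 (-0.12, adjusted p = 0.042). Under median-of-ratios scaling Itgav stood at 0.079 there, and Itgb5, at 0.0050 as deposited, passed at 0.16 (adjusted p = 0.00099). In that comparison the scaling also moved Cd44 from -0.24 to -0.085 and Itgb1 from -0.41 to -0.25, both still past the threshold.

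ADT against both labels gave 0 of the 8 genes past the threshold, with differences from -0.11 for Itgav to 0.14 for Itga9 on the log2 scale. Over all genes 0.0% were called higher and 0.0135% lower in limma, which is 2 genes of 14828, both microRNA genes, Mir7041 and Mir7050, at 0 TPM in both ADT libraries. An unadjusted p under 0.05 was reached by 1220 genes, 8.23%. The libraries of Itgb1, Itgb3 and Itgb5 overlapped between these groups, and those of the other 5 genes did not. A Spp1 difference of the same size passed between TGF-beta1 and enzalutamide under median-of-ratios scaling, so the miss here is one after adjustment in a comparison with 2 calls.

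The effect of enzalutamide depended on whether the label also named TGF-beta1. Without TGF-beta1 the log2 difference of Spp1 with enzalutamide was -0.75, and with it the libraries labelled with both agents stood 2.84 above TGF-beta1 alone. The difference of these differences was 3.59, with a standard error of 0.023 and a limma adjusted p of 1.5e-11. It was negative past the threshold for 6 of the 7 receptor genes, at -2.49 for Itga9 (limma adjusted p = 4.1e-07), -1.15 for Itga5 (2.8e-09), -0.91 for Cd44 (2.3e-07), -0.87 for Itgb1 (1.5e-08), -0.54 for Itgav (6.4e-05) and -0.50 for Itgb3 (0.02). For Itgb5 it was -0.077 and did not pass (95% interval -0.16 to 0.0097, limma adjusted p = 0.11). Spp1 was therefore the 1 gene of the 8 with a positive term. Of all genes, 30.7% had a positive and 33.1% a negative term past the threshold. The call for Itgb3 was lost without DMSO replicate 2 (adjusted p = 0.059), enzalutamide replicate 2 (0.058), TGF-beta1 replicate 2 (0.062) or replicate 1 with both labels (0.052). These terms rest on the libraries labelled with both agents. In those libraries Ccn2, a TGF-beta target, was at 1374.5 and 1378 TPM, below the 1789 and 1799 TPM of enzalutamide alone and the 5910.1 and 5915.5 TPM of TGF-beta1 alone. Other TGF-beta targets in them lay above enzalutamide alone and below TGF-beta1 alone: Pmepa1 was at 194 and 193 TPM, against 183 and 184 TPM and 433 and 437 TPM, and Skil at 61.9 and 61.0 TPM, against 46.8 and 48.4 TPM and 86.6 and 89.3 TPM.

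Set against its receptors, Spp1 RNA was below their sum in 6 libraries and above it in the 4 labelled with both agents or ADT mice. The 7 receptor genes summed to 2754 and 2753 TPM in DMSO, 3060 and 3047 TPM with enzalutamide, 4596 and 4630.0 TPM with TGF-beta1, 2846 and 2857 TPM with both labels, and 2813 and 2866 TPM in the ADT group. Spp1 per summed receptor TPM was 0.349 and 0.347 in DMSO, 0.188 and 0.185 with enzalutamide, and 0.109 and 0.110 with TGF-beta1. It was 1.26 and 1.28 with both labels and 1.22 and 1.20 in the ADT group. The ratio thus ran over a wider range than Spp1 itself, since with TGF-beta1 the ligand was lowest and the receptor sum highest. Per Cd44, Spp1 stood at 4.53 and 4.35 in DMSO, 1.39 in both TGF-beta1 libraries, and 14.4 to 15.2 in the 4 libraries with high Spp1.

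The make-up of the receptor RNA differed as well. Of the summed TPM of the 3 α genes, Itga5 made up 72.5% and 72.2% in DMSO, 78.3% in both enzalutamide libraries, 84.5% and 84.3% with TGF-beta1, 83.3% and 84.2% with both labels, and 85.5% and 84.9% in the ADT group. Itgav made up 26.0% and 26.3% of it in DMSO, 20.5% and 20.4% with enzalutamide, and 14.3% to 16.6% in the other 3 groups. Itga9 was 1.47% to 1.50% of it in DMSO and 0.159% to 0.205% in the libraries with high Spp1. Among the 3 β genes Itgb1 held 83.0% to 88.2% in every library. Itgb3 was 0.242% to 0.353% of the β sum in the DMSO and enzalutamide libraries, 1.41% and 1.48% with TGF-beta1, and 1.96% to 2.09% with both labels and in the ADT group. Itgb3 per Itgb5, a ratio of the αvβ3 and αvβ5 chains, was 0.0167 to 0.0300 in the first 4 libraries and 0.125 to 0.145 in the last 6. These ratios compare values per length within a library and give no test.

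**Figure D3:**
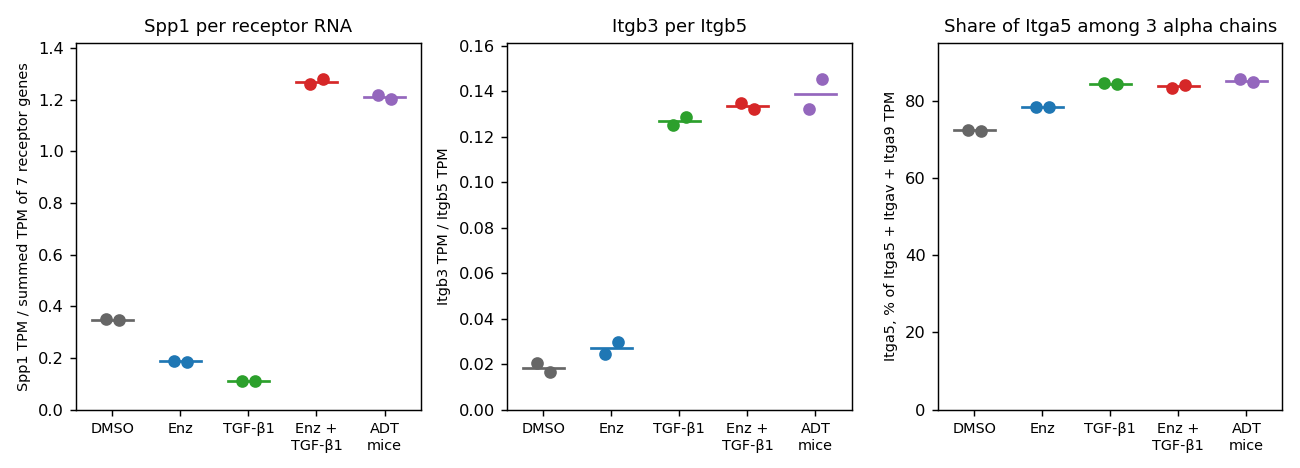
Ratios of TPM within each of the 10 libraries (points; lines are means of 2): Spp1 over the summed receptor genes (left), Itgb3 over Itgb5 (middle) and Itga5 as a percentage of 3 α genes (right). Spp1 per receptor RNA lies at 1.20 to 1.28 in the 4 libraries with both labels or ADT mice and at 0.349 or less in the others, while Itgb3 per Itgb5 is high in the TGF-beta1 libraries too.

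The other genes of the pathway were followed in lists. Of 20 other integrin subunit genes 14 were tested. With both labels 3 were higher and 9 lower than DMSO, with a median log2 difference of -0.72 beside -0.13 for all genes, and in the ADT group 3 were higher and 8 lower, with a median of -0.69. Of all genes 31.5% were higher in each comparison, and 42.7% and 43.3% lower. Itga11, a collagen receptor chain of fibroblasts, was at 46.1 and 45.7 TPM in DMSO, 112 and 111 TPM with TGF-beta1, and 1.96 to 3.05 TPM in the 4 libraries with high Spp1. Itga1, another collagen receptor chain, was at 28.8 and 29.4 TPM in DMSO, 12.8 and 13.2 TPM with TGF-beta1, and 3.21 to 3.71 TPM in those 4. Itga8, whose pair with β1 binds nephronectin and osteopontin, was at 11.0 and 10.5 TPM in DMSO and at 0.217 TPM or less in them. Itga3, a laminin receptor chain, was at 40.2 and 40.4 TPM in DMSO and at 17.4 TPM or less with TGF-beta1, with both labels and in the ADT group. Low levels of Itga9 in these libraries were thus accompanied by low levels of these 4 α chains.

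Of 16 symbols for other integrin ligands 14 are in the table and 9 were tested. With both labels and in the ADT group 2 were higher and 7 lower than DMSO, beside 31.5% of all genes higher in each and 42.7% and 43.3% lower, and the list's medians were -0.34 and -0.47 beside -0.13. Tnc, the matrix glycoprotein tenascin-C, which α9β1 also binds, was at 528 and 523 TPM in DMSO, 820 and 821 TPM with enzalutamide and 1861 and 1868 TPM with TGF-beta1. It was at 1478 to 1521 TPM in the 4 libraries with high Spp1. Ccn2, which encodes a matricellular protein, was at 1196 and 1208 TPM in DMSO and at 1374.5 to 1421 TPM in those 4 libraries, above DMSO but far below TGF-beta1 alone. Npnt, which encodes nephronectin, was at 123 and 119.8 TPM in DMSO and 3.91 to 5.56 TPM in them. Thbs1, thrombospondin 1, is a gene with DMSO values on steps of 0.3 read: as deposited it was above DMSO with enzalutamide (log2 difference 1.56) and TGF-beta1 (1.59), and after division of its DMSO values by 0.3 it was below, at -0.18 and -0.14. With that division the list had 3 higher and 5 lower with enzalutamide in place of 4 and 4, and 4 and 4 with TGF-beta1 in place of 5 and 3. With both labels Thbs1 was lower either way, at -1.72 as deposited and -3.46 after division.

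Of 8 genes for enzymes that phosphorylate, cleave or crosslink osteopontin 5 were tested. Mmp9, a matrix metalloproteinase that cleaves osteopontin, was at 1.84 and 1.53 TPM in DMSO, 3.32 and 2.76 TPM with enzalutamide, and 38.3 and 37.5 TPM with TGF-beta1. It was at 374 TPM in both libraries with both labels and at 409 and 410.2 TPM in the ADT group. The log2 difference from DMSO was 3.86 with TGF-beta1 (limma adjusted p = 6.3e-09), 7.13 with both labels (limma adjusted p = 6.5e-11) and 7.26 in the ADT group (limma adjusted p = 6.3e-11). Mmp9 was thus high where Spp1 was high, and unlike Spp1 it was also above DMSO with each agent alone. Mmp3, another such protease, was at 18.4 and 17.4 TPM in DMSO and 50.7 to 64.2 TPM in the 4 libraries with high Spp1. Tgm2, a transglutaminase that crosslinks osteopontin, was at 200 and 209 TPM in DMSO and 64.2 to 70.2 TPM in them, and Fam20c, the kinase of secreted proteins, at 20.1 and 20.6 TPM and 9.49 to 12.2 TPM. Mmp12, the third protease tested, was at 7.87 and 6.33 TPM in DMSO, did not pass with both labels (log2 difference -0.28, limma adjusted p = 0.13) and was lower in the ADT group (-0.54, limma adjusted p = 0.012). The list thus had 2 higher and 2 lower with both labels, and 2 higher and 3 lower in the ADT group, beside 31.5% of all genes higher in each and 42.7% and 43.3% lower.

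Of 8 factors linked to Spp1 transcription 6 were tested. Fos, a subunit of AP-1, was at 19.7 and 19.2 TPM in DMSO and 2.31 to 5.83 TPM in all other libraries. Ets1 was at 30.5 and 30.4 TPM in DMSO, and at 42.5 to 45.5 TPM with TGF-beta1, both labels or ADT. Vdr, the vitamin D receptor, was at 10.7 and 10.3 TPM in DMSO and 3.91 to 4.86 TPM in the libraries with high Spp1. Smad3, a transducer of TGF-beta signals, is another gene on 0.3-read steps in DMSO. After division of those values it was at -0.014 with enzalutamide (limma adjusted p = 0.82), and lower than DMSO with TGF-beta1 (-0.73), both labels (-0.64) and ADT (-0.67), whereas as deposited it was higher in all 4. With both labels this list had 4 higher and 2 lower as deposited, with a median of 0.23, and 3 and 3 after division, with a median of -0.27. Of all genes 31.5% were higher and 42.7% lower in that comparison, with a median of -0.13.

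Of 13 CD44 partners, sheddases and hyaluronan synthases 11 were tested. With TGF-beta1 5 were higher and 5 lower than DMSO, and with both labels 6 and 4, with medians of 0.084 and 0.22 beside -0.099 and -0.13 over all genes. Of all genes 19.0% were higher and 34.6% lower with TGF-beta1, and 31.5% and 42.7% with both labels. Has2, which makes the CD44 ligand hyaluronan, followed the order of Cd44 in part: it was at 110 and 108 TPM in DMSO and 338 and 335 TPM with TGF-beta1, but at 73.8 and 77.2 TPM with enzalutamide. Msn, moesin, which links CD44 to actin, was at 843 and 878 TPM in DMSO, 1321 and 1310 TPM with TGF-beta1, and 1003 to 1040 TPM in the remaining 6 libraries. Vcan, a hyaluronan-binding proteoglycan, was at 83.7 and 79.5 TPM in DMSO and 145 to 162 TPM in the 4 libraries with high Spp1, and Adam10, which sheds CD44, was at 122 and 121 TPM and 72.7 to 80.1 TPM.

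Of 17 adaptors and kinases of integrin adhesions 16 were tested. With both labels and in the ADT group 2 were higher and 10 lower than DMSO, with medians of -0.30 and -0.26 beside -0.13 over all genes, of which 31.5% were higher in each and 42.7% and 43.3% lower. Median-of-ratios scaling changed these counts to 5 higher and 9 lower, and 5 and 8. The adhesion proteins zyxin, parvin alpha, tensin 1 and vinculin led the falls. Zyx was at 730.2 and 729 TPM in DMSO and 345 to 368 TPM in the 4 libraries with high Spp1, Parva at 365 and 356 TPM and 131 to 135 TPM, and Vcl at 522 and 533 TPM and 233 to 258 TPM. Tns1 was at 211 and 207 TPM in DMSO, 279.9 and 284 TPM with TGF-beta1, and 48.5 to 52.1 TPM in those 4 libraries.

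The 8 response genes, set as a check of the agents, showed how the TGF-beta1 libraries stood. 6 were higher and 2 lower than DMSO with TGF-beta1, also after division of the DMSO values of the 4 genes on 0.3-read steps, with a median of 1.13 after it and 2.17 before. Pmepa1, a TGF-beta target, was among these 4 and was higher with TGF-beta1 by 1.57 after division. Of all genes 19.0% were higher and 34.6% lower with TGF-beta1. Acta2 and Tagln, contractile genes of myofibroblasts, were at 5432 and 5343.5 TPM and 3648 and 3713 TPM in DMSO, and at 1790.5 to 1809 TPM and 1312 to 1336 TPM in the 4 libraries with high Spp1. With TGF-beta1 alone Acta2 was lower than in DMSO, at 3970 and 4026 TPM (log2 difference -0.43, limma adjusted p = 5.6e-08). Tagln was at 3778 and 3829 TPM there. With both labels and in the ADT group the list had 5 higher and 3 lower as deposited, and 3 and 5 after the division. Of all genes 31.5% were higher in each as deposited, and 42.7% and 43.3% lower.

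The genes whose pattern was most like that of Spp1 were sought among 4775 candidates. These had a range of at least 1 on the log2 scale between group means and a group mean of at least 1 TPM. Clone and locus names were left out, namely Gm, LOC, AC or BC with digits and symbols ending in Rik. Over the 10 libraries the highest Pearson r of log2(TPM + 1) with Spp1 belonged to Cip2a (0.9996), Cdca3 (0.9991), Nfil3 (0.9991), Rad21 (0.9989), Ifi203 (0.9989) and Ncapd2 (0.9989). Without the DMSO libraries, which leaves 8, their r was 0.9990 to 0.9997. The order depends on the measure: without DMSO Cip2a ranked 5, Nfil3 10, Cdca3 13 and the other 3 between 30 and 33, and by Spearman's rho over the 10 libraries Cip2a and Nfil3 ranked 4, Rad21 92, Cdca3 143 and Ifi203 and Ncapd2 317. Cip2a had group means of 20.6 TPM in DMSO, 11.8 TPM with enzalutamide, 10.1 TPM with TGF-beta1, 81.2 TPM with both labels and 75.7 TPM in the ADT group, the order of Spp1 at a lower level. Cip2a encodes an inhibitor of the phosphatase PP2A, Nfil3 a transcription factor, Cdca3 a cell cycle protein, Rad21 a cohesin subunit, Ncapd2 a condensin subunit and Ifi203 an interferon-inducible protein. Such values are a description: the libraries fall into 5 groups, 2 of them far from the rest, so many genes reach high values.

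By the same measure the receptor genes differed among themselves. The r with Spp1 was -0.98 for Itga9, -0.92 for Itgb1, -0.61 for Cd44, -0.59 for Itgav, -0.58 for Itgb5, 0.45 for Itgb3 and -0.013 for Itga5. Itgb3 was thus the only receptor gene with a positive value, and no receptor gene was as near to Spp1 as the 6 genes above.

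**Figure D4:**
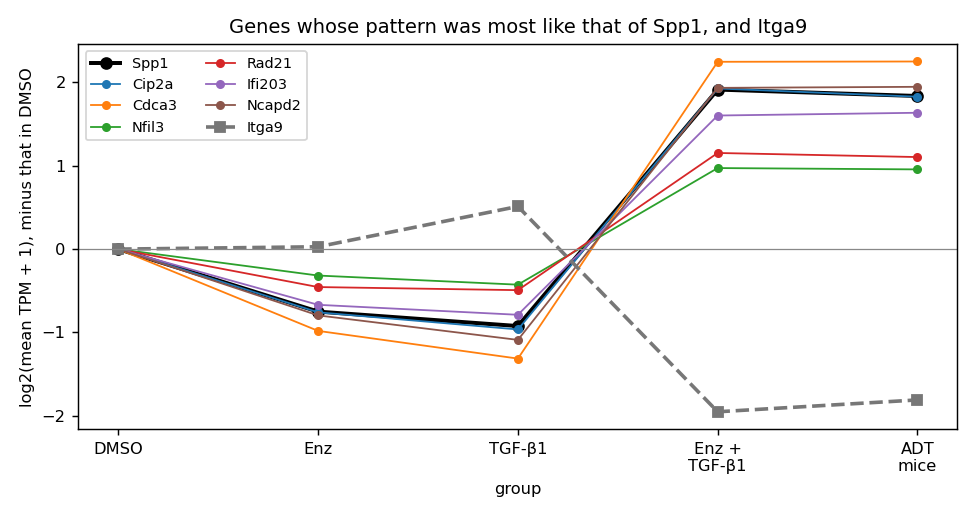
Log2(mean TPM + 1) in each group minus that in DMSO (vertical axis) for Spp1 (thick black line), the 6 genes with the highest Pearson r with it, and Itga9 (dashed), by group (horizontal axis); lines join group means of 2 libraries for reading only. Each of the 6 genes lies below 0 with each single agent and above 0 with both labels and in ADT mice, and Itga9 lies above 0 with TGF-beta1 and near -2 in the last groups.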

How the data were processed

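RNA of 10 mouse fibroblast libraries in 5 groups of 2 was analysed. The authors deposited TPM per gene symbol, per the file headers, with no positions. Per the submitters' processing notes the authors used HISAT2, HTSeq, DESeq2 and the builds mm10 and hg19, with neither role nor version stated. TPM keeps no depth, so reads were recovered from the smallest common step of each gene over at least 6 libraries, solved to 0.02 read (whole: within 0.05 read), for 17519 genes and at least 99.8% of each total. 2 Sox4-labelled columns with values off whole reads were not used, and the human cell line table was not analysed here.

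A linear model of log2(TPM + 1) on group was fitted to all 10 libraries in limma 3.58.1 (R 4.3.3), with a mean-variance trend and 5 residual degrees of freedom, over genes at 1 TPM or more in at least 2 libraries. P-values are two-sided and adjusted by Benjamini-Hochberg over all 14828 genes in each of 11 comparisons, with a threshold of 0.05. Folds are ratios of mean TPM, and log2 differences understate changes of low genes. The fit was tested on simulated data. Groups come from the labels, each of which gives 2 replicates.

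The 8 genes and all lists were chosen with earlier results of these data known. Named genes are the 8, up to 4 genes per list with the smallest adjusted p in a comparison with DMSO, a mean of at least 1 TPM and libraries that do not overlap, and the 6 with the highest r with Spp1. Some genes of the lists are not reported here. Alternatives were a pseudocount of 0.1, no filter, median-of-ratios scaling of the TPM columns, a replicate block, no trend, DMSO values on 0.3-read steps divided by 0.3, fits without the DMSO libraries or those labelled with both agents, and each of the 10 libraries left out in turn.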

Additional observations from a re-analysis of the deposited data

Results flagged for a closer look

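For 7 of the 8 genes the effect of enzalutamide differed with and without TGF-beta1 by an interaction term in limma. Over all genes 30.7% had a positive and 33.1% a negative term past the threshold, so the count alone says little of the 8. On the log2 scale the term was 3.59 for Spp1, -0.91 for Cd44, -0.54 for Itgav, -0.87 for Itgb1, -0.50 for Itgb3, -1.15 for Itga5 and -2.49 for Itga9. Spp1 was 1.68-fold lower with enzalutamide than in DMSO, and 7.16-fold higher with both labels than with TGF-beta1 alone. All 7 terms use the libraries labelled with both agents, which differed from the ADT libraries in 2 of 14828 genes, and whether their label is correct was not tested. No group had enough libraries to be searched for a library far from the others.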

How the results depend on the processing

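Of 1008 values recomputed for the 8 genes, 978 kept their direction and their side of the threshold, and all 126 of Spp1 did so. Across its alternatives Spp1 stayed between -0.77 and -0.73 for enzalutamide and between -0.93 and -0.82 for TGF-beta1 against DMSO, and between 1.90 and 2.07 for both labels and 1.83 and 2.00 for the ADT group. Under median-of-ratios scaling Itgav turned to 0.10 for both labels and 0.0018 for the ADT group against DMSO, and to 0.079 for the ADT group against enzalutamide. With 1 library left out in turn, values ranged from -0.021 to 0.076 for Itga9 with enzalutamide against DMSO and from -0.013 to 0.082 for Itgav with both labels against enzalutamide. For ADT against both labels they ranged from -0.034 to 0.0012 for Itgb1, from -0.015 to 0.080 for Itgb3 and from -0.038 to 0.0023 for Itgb5, and for Itgb5 in ADT against enzalutamide from -0.014 to 0.024. None of these passed the threshold as deposited except Itgav in the ADT group against DMSO, and the cause was not tested. The replicate numbers of different groups are tied by nothing in the labels, and the correlation of same-numbered deviations lay between -0.028 and 0.093. With a replicate block the Spp1 values were the same, for example -0.75 for enzalutamide against DMSO (adjusted p = 5.3e-07), and no call of the 8 genes changed. The total count of calls moved by over 1.5 times only for ADT against both labels (the counts in 1 direction also for enzalutamide against DMSO, given above), from 2 to 14 without a filter, 6 with a pseudocount of 0.1 and 0 with the block or without ADT replicate 1, enzalutamide replicate 2, either library with both labels or either TGF-beta1 library. With 2 libraries a group, differences such as those of Cd44 and Itgb5 under 1.1-fold depend on single libraries. Itga9, at 85 to 100 reads in the libraries with high Spp1, is the member with the fewest reads.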
